A study of Mus musculus with 9 samples.

Results

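The genes described here carry glucose into the cell, break it down to pyruvate and pass pyruvate on to lactate or hold it back from the mitochondria. The list names 35 genes: glucose transporters, the enzymes of glycolysis with their isozymes, lactate dehydrogenases, lactate carriers, the pyruvate dehydrogenase kinases, and the regulators Hif1a and Tigar. A gene was measured when the array held a probe set annotated to it alone, and its probe set of highest mean level was used. Of the 35 genes, 31 were measured, and all 31 lay above the filter on low values (a mean of 4.54, log2). Gpi1, Pfkfb1 and Eno1 had 0 such probe sets, the probe sets of Gapdh were controls or shared with pseudogenes, and these 4 genes were not analysed here. The series as a whole gave 14520 genes that were tested.

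In glycolysis, hexokinase traps glucose as glucose 6-phosphate, phosphofructokinase commits it to breakdown under the control of fructose 2,6-bisphosphate, and pyruvate kinase yields pyruvate. Lactate dehydrogenase interconverts pyruvate and lactate, and pyruvate dehydrogenase, which the pyruvate dehydrogenase kinases switch off, feeds pyruvate into mitochondrial respiration. Most steps are served by several isozymes from separate genes, which tissues and states of activation use in different proportions. T cells that are activated and divide raise glucose uptake and lactate output, in part through Hif1a and Myc.

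RNA came from invariant natural killer T (iNKT) cells of the thymus, T cells with a nearly fixed receptor for lipids on CD1d, from sex-matched mice 8 to 12 weeks old. The 5 Utx wildtype arrays (WT1 to WT5) and 4 Utx knock out arrays (KO1 to KO4) are biological replicates in the titles. Nothing says which arrays came from separate animals, so p-values measure the spread between these samples. The knock out removes Utx, an X-linked demethylase of histone H3 lysine 27 encoded by Kdm6a, and the sources used here do not say how it was made or whether the animals share other alleles. Batch 1 holds WT1 and KO1, batch 2 holds WT2 with KO2, KO3 and KO4, and batch 3 holds WT3, WT4 and WT5. The comparison asks which of these genes change when iNKT cells lack Utx.

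Some facts of the whole series bear on every value below. Deviations from the genotype mean correlated across genes, which are not independent replicates, at r = -0.92 between WT1 and KO1 and at 0.91 between WT2 and KO1. The sources used here do not say whether the values were adjusted for batch before deposit, and the p-values treat the arrays as independent. For Kdm6a, the brightest probe set read 9.79 to 10.15 (log2) on wildtype and 9.62 to 10.07 on knockout arrays. Its dimmer probe sets had differences of -0.46, -0.23 and 0.52 and did not pass over all probe sets (adjusted p 0.129 to 0.673 by limma). Since the deleted part is not given, Kdm6a does not check the labels. Cd3e (12.87 in wildtype, 12.85 in knockout, mean log2 level) and the iNKT factor Zbtb16 (10.95 and 10.72) were present in both genotypes. Of 9 T and iNKT markers, limma called 2 lower at an adjusted p under 0.05 (Tbx21 and Il2rb), against 3.37% of all genes tested. In all, 7 of the 9 differences lay below 0. The log2 of the summed linear level of the 9 markers was 15.30 to 15.44 on wildtype and 14.94 to 15.16 on knockout arrays. Among markers of double-positive thymocytes, 10 of 15 were called higher (summed level 14.74 to 15.14 and 15.54 to 16.05), against 7.88% of all genes tested. For macrophages and dendritic cells 4 of 15 were called higher (10.15 to 10.61 and 11.67 to 12.34). For B cells 2 of 7 were called higher (9.51 to 10.11 and 10.36 to 11.45). Differences above 0, called or not, numbered 15, 13 and 5 in these lists, against 8605 of all 14520 genes. Of 5 neutrophil, 5 thymic epithelium and 1 red cell precursor markers tested, 0 were called by limma (1, 0 and 1 had an unadjusted p under 0.05). The 5 neutrophil markers all had differences above 0 (median 0.91). Their summed level was 7.23 to 9.59 on wildtype arrays. It was above that range on KO1 (10.57) and KO4 (10.72) and within it on KO2 (9.24) and KO3 (7.75). Of 23 G2 and M phase genes 22 were called higher, and of 23 S phase genes 14. In both lists all 23 differences lay above 0. The part of these other cells and of cell division in the results below was not tested, and in sorted bulk RNA a change in the share of cells and a change in RNA per cell cannot be told apart.

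RNA levels in the knockout and wildtype iNKT samples differed at scattered steps of glycolysis. Hk2, Pfkm, Eno2 and Ldhb rose in knockout samples, by 1.74-fold to 3.29-fold, while Pfkfb2, Slc2a3 and Pdk1 fell, by 1.53-fold to 1.69-fold. Of the abundant core enzymes, Pgk1, Pgam1, Pkm and Ldha had differences between -0.05 and 0.12 (log2) and did not pass the test. Aldoa, also abundant, had -0.36, with every knockout array below every wildtype array, and Tpi1 had 0.42. Neither passed. With batch in the limma model and a threshold of 0.05 on the adjusted p, 7 of 31 genes were called (22.6%), against 11.3% of all genes tested. The 4 higher genes compare with a background of 7.88% of all genes and the 3 lower with 3.37%. The median difference over the 31 genes was -0.02 (log2), against 0.11 over all genes tested, with 15 genes above 0 and 16 below. On 13 of the 31 genes the arrays of the genotypes did not overlap (41.9%), a share near the 35% of all genes, with 8 higher (22.2% of all genes) and 5 lower in knockout (12.7%). Batch 3 holds wildtype arrays only, so every fitted difference rests on WT1 against KO1 and WT2 against KO2, KO3 and KO4, and WT3, WT4 and WT5 add only to the estimate of the spread. Fits without 1 array are therefore thin. Without WT2 they compare KO1 with WT1 alone, with the spread taken from the other arrays, and without WT1 or without KO1 they are the same fit, with WT2 as the only wildtype array compared. In the first of these limma called 0 of the 31 genes, 9 of which had an unadjusted p under 0.05, and 969 of all genes. Adjusted over all probe sets in place of 1 per gene, Pfkm (adjusted p = 0.0545 by limma) and Eno2 (adjusted p = 0.0614) no longer passed and the other 5 did.

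**Figure D1:**
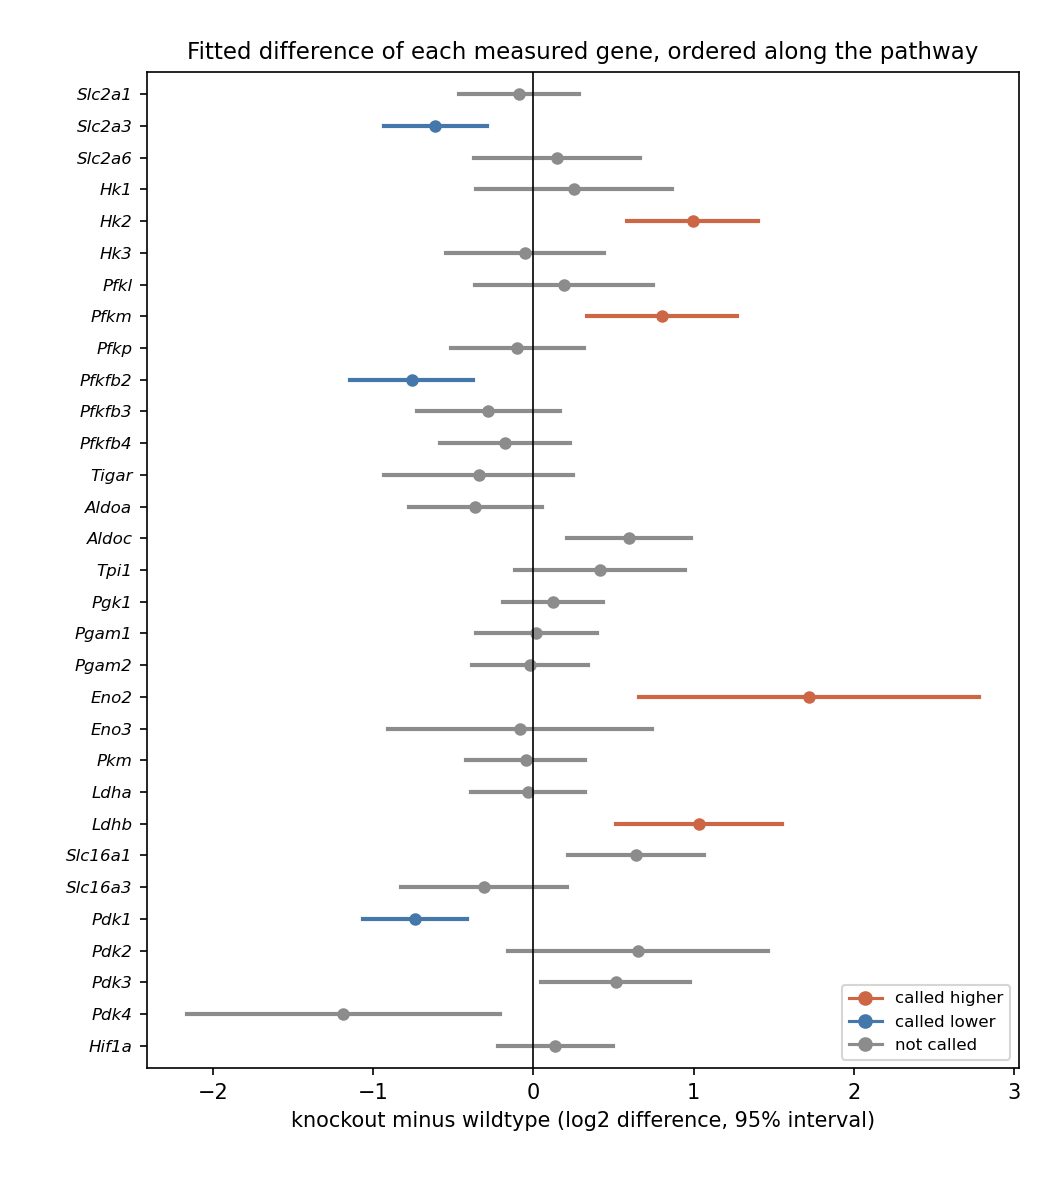
Fitted log2 difference, knockout minus wildtype, of each of the 31 measured genes, with its 95% interval from the limma fit with batch (5 wildtype and 4 knockout arrays). Genes run down the axis from uptake to pyruvate dehydrogenase kinases and Hif1a. The intervals of the 4 genes called higher and the 3 called lower lie clear of 0. So do those of Aldoc, Slc16a1, Pdk3 and Pdk4, which were not called after adjustment. Those of Pgam1, Pkm and Ldha are centred near 0.

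The bases just before the transcription start are shown for Hk2 and Ldhb, which rose, for Ldha, the isozyme partner of Ldhb that did not pass, and for Pdk1, which fell. Each is 250 bases long and ends at the first start site that RefSeq lists (build GRCm38.p6), written in the direction of the gene. Capitals mark ACGTG or GCGTG on either strand, the core letters that hypoxia-inducible factors can bind.
Hk2 (chr6:82774455-82774704, minus strand): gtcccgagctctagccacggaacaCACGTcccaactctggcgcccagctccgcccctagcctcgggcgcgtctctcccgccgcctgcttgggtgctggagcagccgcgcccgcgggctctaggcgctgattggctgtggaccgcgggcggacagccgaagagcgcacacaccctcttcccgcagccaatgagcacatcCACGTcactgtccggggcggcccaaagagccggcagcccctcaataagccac
Ldha (chr7:46845554-46845803, plus strand): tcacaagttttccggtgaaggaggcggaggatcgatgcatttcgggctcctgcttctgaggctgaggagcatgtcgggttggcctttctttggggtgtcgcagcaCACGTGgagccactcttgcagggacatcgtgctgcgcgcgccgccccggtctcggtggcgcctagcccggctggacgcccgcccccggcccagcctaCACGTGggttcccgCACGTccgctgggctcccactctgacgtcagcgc
Ldhb (chr6:142507958-142508207, minus strand): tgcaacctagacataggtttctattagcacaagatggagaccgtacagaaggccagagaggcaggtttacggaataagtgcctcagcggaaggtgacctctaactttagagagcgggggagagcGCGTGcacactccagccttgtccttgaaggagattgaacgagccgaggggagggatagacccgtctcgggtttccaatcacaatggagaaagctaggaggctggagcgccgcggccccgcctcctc
Pdk1 (chr2:71872974-71873223, plus strand): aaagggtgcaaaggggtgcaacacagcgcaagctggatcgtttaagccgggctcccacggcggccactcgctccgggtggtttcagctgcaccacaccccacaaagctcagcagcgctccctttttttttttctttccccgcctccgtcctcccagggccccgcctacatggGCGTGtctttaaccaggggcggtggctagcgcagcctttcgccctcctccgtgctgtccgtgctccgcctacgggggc
Hk2 held 2 matches to ACGTG, 226 and 52 bases before the start. Ldha held 5, of which 4 lie in 2 copies of the palindrome CACGTG, the E-box that Myc and its relatives can bind. Ldhb held 0 matches to ACGTG and 1 to GCGTG, and so did Pdk1. Such windows were listed for 34 of the 35 genes, with Slc2a3 missing from the table. ACGTG was in 14 of the 34 (41.2%), against 16.6% of the windows of 27025 genes, GCGTG in 16 (47.1%, against 28.2%) and CACGTG, which contains ACGTG, in 6 (17.6%, against 6.05%). Among genes with a test, ACGTG was in 2 of the 4 that rose, 1 of the 2 with a window that fell and 11 of the 24 that were not called. A match is a string of letters and not a measured binding site.

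Of 3 glucose transporter genes, 1 was called lower, as were 3.37% of all genes tested. Slc2a3, which encodes the high-affinity transporter GLUT3, fell by 1.53-fold. Its level read 11.63, 11.49, 11.51, 11.62 and 11.60 (log2) on WT1 to WT5 and 10.91, 10.95, 10.95 and 10.96 on KO1 to KO4. All 4 knockout arrays lay within a narrow band below every wildtype array, and the log2 difference was -0.61 (SE 0.14, adjusted p = 0.0300 by limma). It was -0.72 in batch 1 and -0.54 in batch 2. The call ended without WT1, WT2, WT3, WT5, KO1, KO3 or KO4 (differences -0.72 to -0.54, adjusted p up to 0.119), with arrays centred on their medians and on the mean of all its probe sets. Of the other 3 probe sets of Slc2a3, none passed by limma over all probe sets, with differences of -0.44, -0.32 and -0.18 (2 of them at mean levels of 5.74 and 4.61). Slc2a1, which encodes the main T cell transporter GLUT1, read 11.57, 11.27, 11.51, 11.40 and 11.41 in wildtype and 11.17, 11.37, 11.38 and 11.42 in knockout, with overlapping groups. Its difference was -0.09 (95% interval -0.46 to 0.29), from -0.40 in batch 1 to 0.12 in batch 2. The lysosomal transporter gene Slc2a6 had 0.15 (adjusted p = 0.687).

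Among the hexokinases, which start glycolysis, Hk2 rose and the others did not pass. Hk2, the inducible isozyme, read 6.96, 6.93, 6.94, 7.21 and 6.72 (log2) on WT1 to WT5 and 8.00, 7.77, 7.90 and 8.01 on KO1 to KO4. The lowest knockout array lay above the highest wildtype array by 0.56. Group means were 6.95 ± 0.17 (SD, n = 5) and 7.92 ± 0.11 (SD, n = 4). The fit gave a 1.99-fold rise, 0.99 on the log2 scale with an SE of 0.18 (adjusted p = 0.0135 by limma), with 1.04 in batch 1 and 0.97 in batch 2. The call ended without WT2, where KO1 is set against WT1 alone (1.04, adjusted p = 0.0834), and held when any other single array was left out. Hk1, the widely expressed isozyme, read 9.65, 9.27, 9.45, 9.72 and 9.25 in wildtype and 9.52, 9.36, 9.79 and 10.18 in knockout. Its groups overlapped, and its difference of 0.25 (95% interval -0.36 to 0.86) went both ways in the batches, at -0.13 and 0.50. A second, dimmer probe set of Hk1 had -0.45 (adjusted p = 0.142 over all probe sets). Hk3, best known from myeloid cells, had -0.05 (95% interval -0.55 to 0.44).

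At the phosphofructokinase step, the muscle-type subunit rose and the control by fructose 2,6-bisphosphate had 1 gene that fell. Pfkm read 7.47, 7.50, 7.28, 7.67 and 7.60 in wildtype and 8.37, 7.92, 8.38 and 8.43 in knockout. KO2 lay lower than the other knockout arrays but still above every wildtype array. The log2 difference was 0.80 (SE 0.21, adjusted p = 0.0419 by limma), 0.89 in batch 1 and 0.74 in batch 2. When single arrays were left out, the call of Pfkm held only without KO2 (0.74 to 0.90, adjusted p 0.0170 to 0.192 over all omissions). It also ended after another quantile normalization, with arrays centred on their medians and with limma's trended robust variance. Pfkl, the liver-type subunit, had 0.19 (adjusted p = 0.615) and Pfkp, the platelet-type subunit, -0.10 (adjusted p = 0.732).

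Pfkfb2 encodes an enzyme that both makes and removes fructose 2,6-bisphosphate, the activator of phosphofructokinase. It read 7.74, 7.94, 7.80, 7.69 and 7.97 in wildtype and 7.17, 7.18, 7.06 and 6.92 in knockout, with no overlap. It fell by 0.76 on the log2 scale (SE 0.17, adjusted p = 0.0270 by limma), with -0.57 in batch 1 and -0.89 in batch 2. Its call ended without WT2, WT3 or KO3 (adjusted p up to 0.321) and with limma's trended robust variance. All 4 of its probe sets had a negative difference, of -0.77 to -0.28, the other 3 at mean levels of 4.06 to 5.42. Pfkfb3 (-0.28), Pfkfb4 (-0.18) and Tigar (-0.34), whose product breaks down fructose 2,6-bisphosphate, did not pass (adjusted p 0.360 to 0.527). Tigar had -0.89 in batch 1 and 0.03 in batch 2.

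Of 9 genes of the splitting and energy-yielding steps, 1 rose and 0 fell, near the 11.3% of all genes tested that were called. Eno2, the enolase of neurons, read 6.62, 5.68, 6.43, 6.34 and 5.54 in wildtype and 7.48, 7.72, 7.43 and 8.78 in knockout. KO4 was the highest and the wildtype arrays were spread over more than 1 log2 unit, yet the groups did not overlap. Group means were 6.12 ± 0.48 and 7.85 ± 0.63. The fit gave a 3.29-fold rise, 1.72 on the log2 scale with an SE of 0.47 (adjusted p = 0.0492 by limma), with 0.86 in batch 1 and 2.29 in batch 2. The call ended without WT2, WT3, WT4, WT5, KO2 or KO3 (0.86 without WT2 and up to 1.83, adjusted p up to 0.639) with no filter on low values and with arrays centred on their medians. The muscle enolase gene Eno3 had -0.08, with -0.96 in batch 1 and 0.50 in batch 2.

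Pgk1, phosphoglycerate kinase, read 12.12 to 12.14 on the 5 wildtype arrays and 12.19 to 12.29 on the 4 knockout arrays. These groups did not overlap, but the fitted difference of 0.12 (95% interval -0.19 to 0.43) did not pass. Its SE of 0.14 uses limma's variance, which is drawn toward a value shared by all genes. The arrays of Pgk1 themselves varied less (SD 0.0076 in wildtype and 0.043 in knockout). Pkm, pyruvate kinase, read 11.51, 11.34, 11.34, 11.62 and 11.33 in wildtype and 11.31, 11.46, 11.30 and 11.40 in knockout, a difference of -0.05 (95% interval -0.42 to 0.32). Its probe set does not separate the splice forms of pyruvate kinase in the annotation used. Pgam1, phosphoglycerate mutase, had 0.02 (95% interval -0.36 to 0.39) and Tpi1, triose phosphate isomerase, 0.42 (adjusted p = 0.255). Aldoa, the main aldolase, had -0.36 (adjusted p = 0.211), negative on each of its 5 probe sets. Aldoc, the brain-type aldolase, read 4.88 to 5.26 in wildtype, close to the filter level, and 5.43 to 5.71 in knockout (log2 difference 0.60, adjusted p = 0.0556). A second probe set of Aldoc, at a mean level of 5.27, overlapped (4.51 to 5.29 and 4.94 to 6.66). Its difference of 0.95 did not pass over all probe sets (adjusted p = 0.267 by limma).

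At the lactate step, Ldhb rose and Ldha did not pass. Ldhb, the heart-type subunit, which favours the conversion of lactate to pyruvate, read 10.56, 10.73, 10.65, 10.91 and 10.42 in wildtype and 11.75, 11.29, 11.73 and 11.94 in knockout. Every knockout array lay above every wildtype array, KO2 being the nearest. Group means were 10.65 ± 0.18 and 11.68 ± 0.27. The fit gave a 2.05-fold rise, 1.03 on the log2 scale with an SE of 0.23 (adjusted p = 0.0265 by limma), with 1.20 in batch 1 and 0.93 in batch 2. The call ended without WT1, WT2, KO1 or KO3 (0.93 to 1.20, adjusted p up to 0.105). The other 3 probe sets of Ldhb gave 0.74 to 0.90. Ldha, the muscle-type subunit, read 12.18, 12.11, 12.03, 12.34 and 12.07 in wildtype and 12.08, 12.15, 12.05 and 12.15 in knockout. The groups overlapped, and the difference was -0.03 (95% interval -0.39 to 0.32).

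The lactate carrier gene Slc16a1 (MCT1) read 10.67, 11.01, 10.83, 10.80 and 10.92 in wildtype and 11.66, 11.43, 11.59 and 11.23 in knockout, without overlap, and missed the threshold (log2 difference 0.64, SE 0.19, adjusted p = 0.0608 by limma). A second probe set at a mean level of 6.04 had 1.60 and passed over all probe sets (adjusted p = 0.0132). Slc16a3 (MCT4), the carrier of strongly glycolytic cells, had -0.31 (adjusted p = 0.382).

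The pyruvate dehydrogenase kinases went different ways. Pdk1 read 11.40, 11.25, 11.36, 11.33 and 11.25 in wildtype and 10.54, 10.63, 10.58 and 10.58 in knockout. The 4 knockout arrays lay close together, 0.62 below the lowest wildtype array. The log2 difference was -0.74 (SE 0.14, 1.67-fold, adjusted p = 0.0166 by limma), with -0.87 in batch 1 and -0.65 in batch 2. Leaving out WT1, WT2 or KO1 ended the call (differences of -0.87 to -0.65, adjusted p up to 0.0664), as did the mean of all its probe sets, the other 3 of which had -0.54, -0.33 and -0.32. Pdk4, the kinase induced by fasting in many tissues, read 6.24, 7.60, 7.45, 6.19 and 6.86 in wildtype and 5.46 to 6.11 in knockout. Its wildtype arrays were widely spread, and its difference of -1.19 did not pass (SE 0.43, adjusted p = 0.105). It passed without WT1 or KO1 (-1.82, lowest adjusted p 0.0398). Pdk2 (0.65, adjusted p = 0.244) and Pdk3 (0.51, adjusted p = 0.130) had positive differences in both batches and did not pass.

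**Figure D2:**
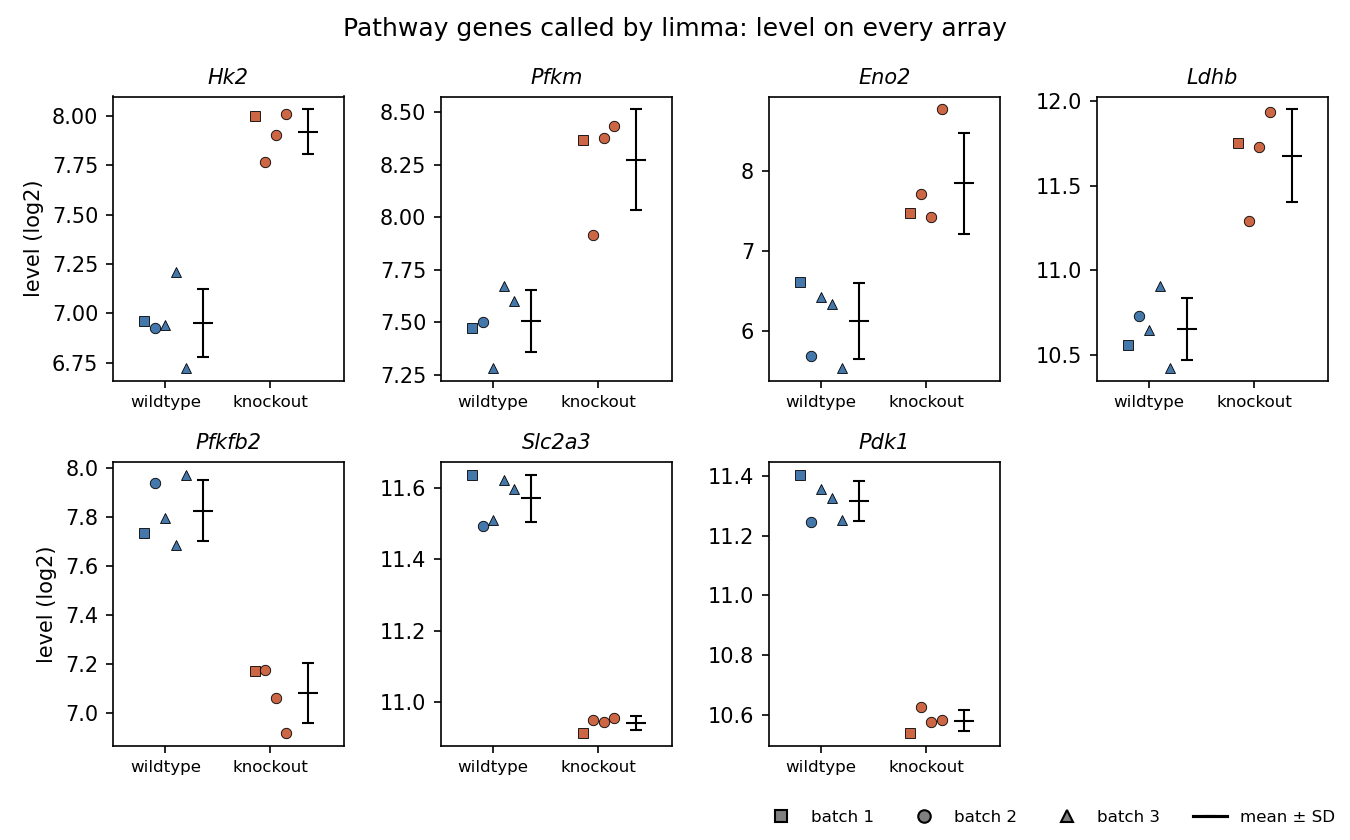
Level (log2) of the 7 genes called by limma on every array, wildtype in blue and knockout in orange. Marker shapes give the batch, and bars give the mean ± SD of 5 wildtype and 4 knockout arrays. In each panel the genotypes do not overlap, and KO2 is the knockout array nearest to wildtype for Hk2, Pfkm, Ldhb, Pfkfb2 and Pdk1.

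Hif1a, the factor that induces many glycolytic genes, read 11.85, 11.89, 11.99, 11.71 and 11.89 in wildtype and 12.03, 11.95, 12.13 and 11.92 in knockout. The groups overlapped on this probe set, and the difference was 0.14 (95% interval -0.22 to 0.50). A second probe set, at a mean level of 10.42, read 10.05 to 10.42 in wildtype and 10.44 to 10.80 in knockout, without overlap. Its difference of 0.47 did not pass over all probe sets (adjusted p = 0.135 by limma). The remaining probe sets of Hif1a had -0.24 and 0.003.

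Changes between isozymes of a step were measured as the difference of 2 genes within each array, compared between genotypes. Levels of different probe sets are not comparable, so only the change of such a difference is given. Over 7 pairs, 5 passed a two-sided exact permutation test over the 9 arrays, adjusted over the pairs. Each of the 5 had an adjusted p of 0.0111 by this test, from the smallest p that 126 splits can give, 0.00794. Hk2, Ldhb and Slc2a3 were already called singly, so their pairs are not separate evidence. The test takes no account of batch or of the correlated deviations of WT1, WT2 and KO1. Splits within batches number 8 and cannot give a p below 0.125, so the values within batches stand beside each pair. The 5 pairs are those whose arrays did not overlap between the genotypes. Among single genes, arrays of the genotypes did not overlap on 35% of all genes tested. The share over other pairs of genes was not computed.

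Hk2 minus Hk1 rose by 0.74 (log2, SE 0.22 with batch), with 1.17 in batch 1 and 0.46 in batch 2. Hk1 itself did not fall on the probe set used (0.25). The array values of Hk2 minus Hk1 were -2.69 to -2.35 in wildtype and -2.17 to -1.52 in knockout, which did not overlap. Ldhb minus Ldha rose from -1.49 ± 0.13 to -0.43 ± 0.29, by 1.07 (SE 0.23), with 1.30 and 0.92 in the batches. Aldoc minus Aldoa rose by 0.96 (SE 0.21), with 1.27 and 0.75, on an Aldoc level near the filter. Slc2a3 minus Slc2a1 fell from 0.14 ± 0.10 to -0.39 ± 0.09, a change of -0.53 (SE 0.10), with -0.32 and -0.66. Slc16a3 minus Slc16a1 had -0.95 (SE 0.33), with -1.44 and -0.62. Pfkm minus Pfkl (0.61, SE 0.37, adjusted p = 0.0648 by the exact permutation test) and Pfkp minus Pfkl (-0.29, SE 0.32, adjusted p = 0.230) did not pass. On Pfkm minus Pfkl, KO2 at -1.72 lay among the wildtype arrays, and without KO2 the pair passed (0.82, adjusted p = 0.0208).

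**Figure D3:**
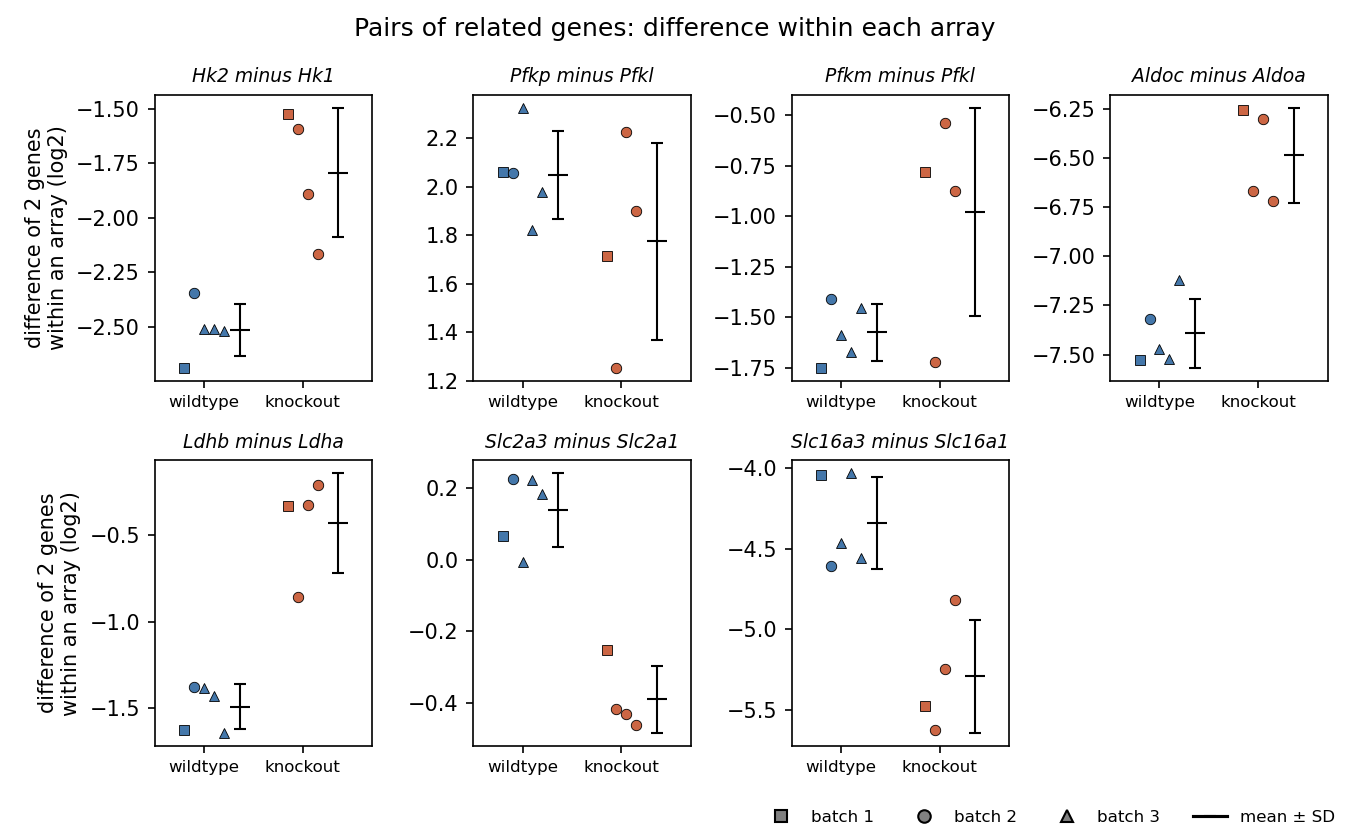
Difference of 2 related genes within each array (log2) for 7 pairs, wildtype in blue and knockout in orange. Marker shapes give the batch, and bars give the mean ± SD of 5 wildtype and 4 knockout arrays. Wildtype and knockout arrays do not overlap in 5 pairs and overlap for Pfkp minus Pfkl and Pfkm minus Pfkl.

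Between the batches, 20 of the 31 genes had differences of the same sign, as did 9486 of all 14520 genes, which is about the same share. The 7 called genes were among them, as their selection by the pooled difference nearly fixes. The median over the 31 genes was -0.13 in batch 1 and 0.11 in batch 2, against -0.01 and 0.19 over all genes. Eno3 and Tigar were lower in batch 1 (-0.96 and -0.89) and not in batch 2 (0.50 and 0.03), and Pdk4 differed mainly in batch 2 (-0.24 and -1.82). Whether differences vary by batch was not tested.

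**Figure D4:**
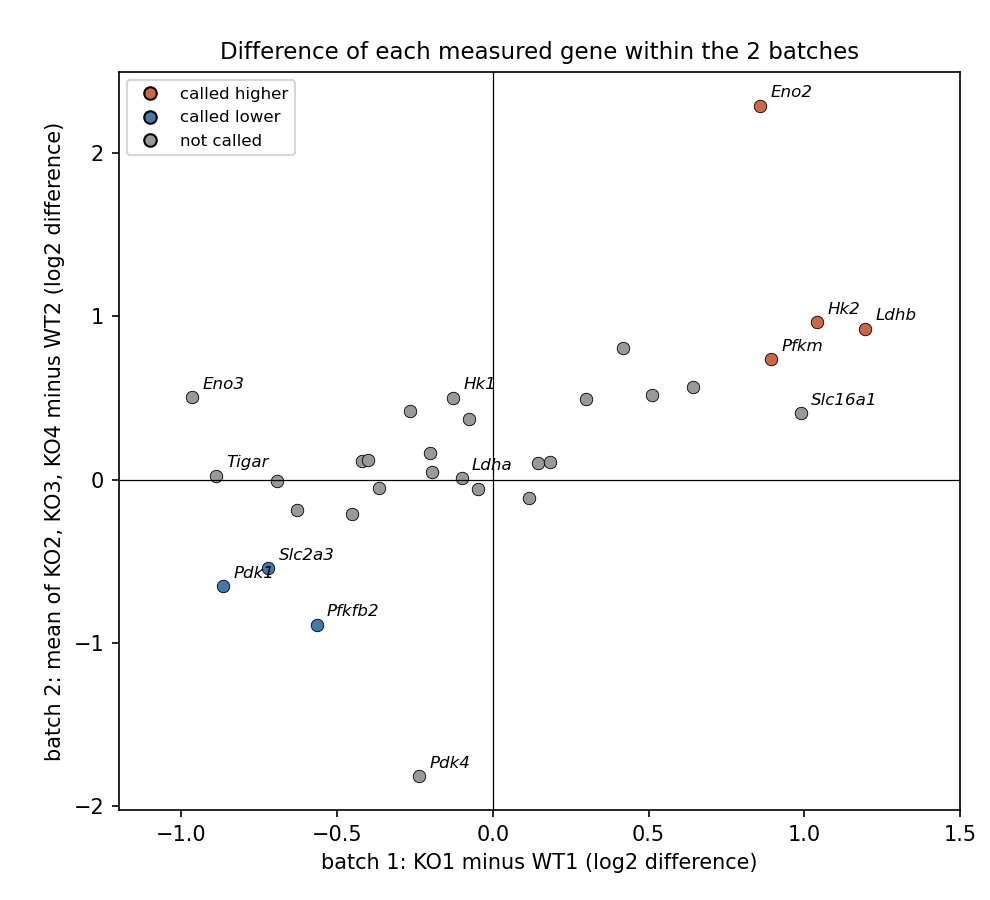
Log2 difference of each of the 31 measured genes within batch 1 (KO1 minus WT1, horizontal axis) and within batch 2 (mean of KO2, KO3 and KO4 minus WT2, vertical axis). The genes called higher lie at the upper right and those called lower at the lower left. Eno2 has the largest difference in batch 2 (2.29).

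Genes next to this pathway were read from 5 further lists, together 67 tested genes, of which 5 passed limma (7.46%, below the 11.3% of all genes tested). Among 10 genes of pyruvate entry into mitochondria, 1 rose and 0 fell (10% called, near the share of all genes). Their median was 0.48 and 9 of 10 differences lay above 0, against 0.11 and 8605 of 14520 over all genes. Pdp2, a phosphatase that reverses the action of the pyruvate dehydrogenase kinases, read 7.92 to 8.14 in wildtype and 8.46 to 8.65 in knockout (log2 difference 0.56, SE 0.14, adjusted p = 0.0399). Its call ended whichever array was left out (0.51 to 0.60, adjusted p 0.0523 to 0.312). Pdhx, a binding protein of the same complex, had 0.87 (adjusted p = 0.0586) and Pdp1, the other phosphatase, -0.92 (adjusted p = 0.0619).

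Among 17 further glycolytic and branch enzymes, 1 was called higher and 0 lower (5.88% called, below the 11.3% of all genes tested, median 0.09). Bpgm, which diverts a glycolytic intermediate to 2,3-bisphosphoglycerate, read 9.11 to 9.41 in wildtype and 10.14 to 10.37 in knockout. It rose 1.98-fold, by 0.99 with an SE of 0.16 (adjusted p = 0.00963). With WT2 left out, KO1 against WT1 alone gave 0.76 and did not pass (adjusted p = 0.121). Of 9 further transporters, 1 was called lower and 0 higher (11.1% called, near the share of all genes, median 0.10). Slc16a10, a carrier of aromatic amino acids in the lactate carrier family, averaged 9.85 ± 0.26 in wildtype and 8.51 ± 0.18 in knockout. Its log2 difference was -1.32 with an SE of 0.23 (adjusted p = 0.0122). The call held whichever array was left out and ended on the mean of all its probe sets (-0.66, adjusted p = 0.0756).

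Of 16 regulators of the hypoxia pathway and of Myc, 1 was called higher and 1 lower (12.5% called, near the 11.3% of all genes tested, median -0.11). Hif3a, an alpha subunit that can restrain the others, averaged 6.95 ± 0.11 in wildtype and 5.79 ± 0.041 in knockout. Its log2 difference was -1.16 with an SE of 0.15 (adjusted p = 0.00458), with -1.13 and -1.18 in the batches, and its call held whichever array was left out. Mxi1, an antagonist of Myc, averaged 10.01 ± 0.13 in wildtype and 11.22 ± 0.25 in knockout. It rose by 1.23 with an SE of 0.21 (adjusted p = 0.0105), and with WT2 left out KO1 against WT1 alone gave 0.99 and did not pass (adjusted p = 0.125). Myc itself had -0.14 (adjusted p = 0.782). Of 15 other genes known to be induced by hypoxia, limma called 0 at adjusted p of 0.05, with 5 at an unadjusted p under 0.05. Their median was 0.36, and P4ha1 had 0.65 (adjusted p = 0.0578), Ndrg1 0.90 (adjusted p = 0.0740) and Ero1a -0.34 (adjusted p = 0.188).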

How the data were processed

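The authors deposited log2 values for each probe set, made with RMA (no version) per the submitters' processing notes. Per the labels' protocols, sorted cells gave total RNA that was amplified by a kit for small amounts, which can compress differences. The sources used here do not give the sort gate. Array medians were 5.97 to 6.09 and interquartile ranges 3.45 to 3.84 (wildtype) and 3.80 to 4.29 (knockout). Arrays give no read depth, and their number limits the precision.

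Of 45101 probe sets, 34945 were annotated to 1 gene, 932 to several and 9160 to none, and 64 controls were left out. The probe set of highest mean per gene was tested if above the 25th percentile of all others (4.54). limma (3.58.1, R 4.3.3) fitted genotype and batch on all 9 arrays, where the 3 arrays of batch 3 inform only the spread, with Benjamini-Hochberg adjustment over 14520 genes, and any adjusted p without a named test is from it. Errors are SE of the fit or SD between arrays. For SE, intervals and p-values, limma draws the variance of each gene toward a value shared by all genes (prior df 3.50, residual df 5). In simulated data on 14520 genes, 5.88%, 32.9% and 82.3% of genes changed 1.5-fold, 2-fold and 4-fold were recovered, with 4 false among 82 calls. Beside a batch shift, the simulated noise was independent between arrays, unlike the correlated deviations of WT1, WT2 and KO1. These rates therefore need not hold for the deposited values.

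The genes and lists were chosen with earlier results of these data known. Values of every array are printed for called genes and for Hk1, Hk2, Slc2a1, Slc2a3, Ldha, Ldhb, Pkm, Pdk1 and Hif1a, and of the other lists up to 4 called genes of smallest p are named. Slc16a1, Pdk4, Pgk1, Aldoc and the uncalled genes of other lists were singled out after their values were seen. Alternatives covered the batch term, replicate number, scaling, filter, probe set, eBayes settings, array weights, threshold and samples.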

Additional observations from a re-analysis of the deposited data

Results flagged for a closer look

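Over 62 groups of arrays (31 genes in 2 genotypes), 1 array stood apart from its group by Dixon's criterion, which chance meets in about 1 in 20 groups. Pfkm read 7.92 on KO2, while the other knockout arrays read 8.37 to 8.43, so the gap to the nearest array took up 87.1% of the group's range.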

How the results depend on the processing

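No called gene changed sign under any alternative run. The 4 higher and 3 lower calls became 7 and 5 with no batch term (6341 of all genes called), and 12 and 9 with batch as a random block (10044). They became 0 and 0 with array weights (534), without the 3 wildtype arrays of batch 3 (340), without these and KO2 (560, chosen after earlier results were seen) and at an adjusted p of 0.01 (336). In batch 2 alone limma called 0 of all genes and 0 of these, with 6 of the 31 at an unadjusted p under 0.05. The higher calls were 2 with arrays centred on their medians and 2 without the batch 1 pair. The lower calls were 1 on the mean of all probe sets and 0 on the probe set of largest variance. Leaving out 1 array, which without WT2 leaves only KO1 against WT1, gave 0 to 3 higher and 0 to 3 lower calls, and 860 to 2054 calls over all genes. The median over the genes was 0.11 in batch 2 alone and without the batch 1 pair, and -0.13 to 0.11 without 1 array. The 5 calls of the other lists were 34, 53, 9, 3, 1, 0 and 8 with no batch term, a random block, another quantile normalization, array weights, no batch 3 arrays, batch 2 alone and no batch 1 pair, and 3 to 8 without 1 array. The 5 pairs that passed became 7 on the mean of all probe sets, 5 after another quantile normalization and 5 to 6 without 1 array. No other alternative was run for the count of pairs. After another quantile normalization 58.2% of all calls were higher, against 70% as deposited.

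The replicate numbers do not pair the arrays: same-numbered arrays correlated in their deviations at -0.92 to 0.15, and 1 of 4 knockout arrays correlated best with its own number. With the replicate block in place of batch there were 8 higher and 3 lower calls (23 in the other lists, 4290 over all genes), and with a random replicate block beside batch 4 and 3. The cause of these changes was not tested.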

Other observations

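Pgk1 had an SD of 0.0076 (log2) over the 5 wildtype arrays, the smallest among the 31 genes, and 0.043 over the 4 knockout arrays. Slc2a3 (SD 0.019) and Pdk1 (SD 0.036) were the least variable of the 31 genes over the knockout arrays. Galm, which interconverts the forms of glucose, had the largest difference of the further glycolytic enzymes (1.07) and did not pass limma (adjusted p = 0.0640). Egln3, an oxygen sensor that marks hypoxia-inducible factors for breakdown, had 1.11 (adjusted p = 0.106), 0.46 in batch 1 and 1.55 in batch 2.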
